A study of Mus musculus with 8 samples.

Results

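The naive pluripotency transcription factors examined here were 10 genes, Pou5f1, Sox2, Nanog, Klf4, Klf2, Esrrb, Zfp42, Tfcp2l1, Tbx3 and Prdm14. They were chosen by name, and each matched 1 of the 50686 Ensembl identifiers in the count table, of which 35478 had a count above 0 in at least 1 library. All 10 passed the filter on low counts in every group comparison, with raw counts from 667 for Prdm14 to 155063 for Pou5f1 in a library.

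Mouse embryonic stem cells (mESCs) of 2 genotypes, wild type (R9wt) and Rad9-/- (R9del), were grown in culture devices. The devices sat in a sealed payload, aboard the SJ-10 satellite or on the ground. The cells were fixed with RNAlater after 1 day (D1) or 5 days (D5). There were 8 such cultures and 1 library from each, named from Ground_R9wt_D1 to Space_R9del_D5, and no culture was repeated. Rad9 is a subunit of a ring-shaped clamp that is loaded onto damaged DNA, where it helps to activate the ATR kinase. All cells were mESCs, and no other deletion or agent was named. D1 and D5 cultures sat in separate device groups, each with its own temperature control, and were seeded at different cell numbers, so that day, device group and seeding cannot be told apart. In orbit the D1 cells were also fixed earlier and then kept cold until the return, so storage time goes with day as well. The D5 devices of R9wt and R9del were also seeded at different cell numbers, so that at D5 genotype and seeding cannot be told apart. Likewise, the space libraries differed from the ground libraries in launch and return as well as in the time in orbit.

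The genes belong to the network that holds mESCs in the naive state, the state of the inner cell mass before implantation. Oct4 (encoded by Pou5f1) and Sox2 bind DNA as partners next to each other, and Nanog joins them at many enhancers. Klf4, Klf2, Tfcp2l1, Esrrb, Tbx3 and Prdm14 connect this core to signals such as LIF/STAT3 and the FGF/ERK pathway, and Zfp42 (Rex1) is a widely used marker that is lost when cells leave the naive state.

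Rad9a itself was at 70.3 to 93.4 CPM (counts scaled to the size of each library and by the trimmed mean of M values, TMM) in the R9wt libraries and at 20.8 to 28.6 CPM in the R9del libraries, so the labels of genotype matched the targeted gene without overlap. The libraries held 58238440 to 96416907 counts. Of the 8 fibroblast markers, which would mark feeder cells, Col3a1, Lum, Dcn and Postn were at 0.235 CPM or below in every library, while Thy1 was at 11.8 to 38.7, Col1a1 at 3.85 to 10.4, Col1a2 at up to 8.88 and Twist1 at up to 1.55 CPM.

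Sequences of 4 promoters are given to show how the start regions of these genes look, since the factors are known to bind the genes of their own network. The 250 bases before the start were taken from RefSeq (GRCm38.p6), where 8 of the 10 genes had an entry, and for genes with several entries the most upstream one was used. Capitals mark matches, on either strand, to the octamer core ATGCAAA, the Sox letters ACAATG, the nuclear receptor core AGGTCA and the Klf letters CCACCC. These 4 sets of letters were chosen after the promoters had been seen, and a match is not a binding site.
Sox2, chr3:34649745-34649994, strand plus: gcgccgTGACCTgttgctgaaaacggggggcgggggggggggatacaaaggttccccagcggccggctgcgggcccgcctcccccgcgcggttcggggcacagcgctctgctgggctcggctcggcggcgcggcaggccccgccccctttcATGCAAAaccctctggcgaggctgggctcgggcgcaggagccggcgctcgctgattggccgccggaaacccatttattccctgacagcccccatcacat
Nanog, chr6:122707239-122707488, strand plus: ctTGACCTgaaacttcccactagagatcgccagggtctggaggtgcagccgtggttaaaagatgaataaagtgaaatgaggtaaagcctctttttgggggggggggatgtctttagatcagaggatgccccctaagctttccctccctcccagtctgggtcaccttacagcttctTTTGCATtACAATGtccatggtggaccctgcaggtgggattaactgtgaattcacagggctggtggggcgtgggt
Zfp42, chr8:43307010-43307259, strand minus: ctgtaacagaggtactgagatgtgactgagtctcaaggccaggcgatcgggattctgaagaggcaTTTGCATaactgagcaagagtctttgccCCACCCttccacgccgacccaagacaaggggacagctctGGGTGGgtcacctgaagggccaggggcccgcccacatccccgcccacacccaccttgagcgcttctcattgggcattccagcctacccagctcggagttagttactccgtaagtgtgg
Esrrb, chr12:86360867-86361116, strand plus: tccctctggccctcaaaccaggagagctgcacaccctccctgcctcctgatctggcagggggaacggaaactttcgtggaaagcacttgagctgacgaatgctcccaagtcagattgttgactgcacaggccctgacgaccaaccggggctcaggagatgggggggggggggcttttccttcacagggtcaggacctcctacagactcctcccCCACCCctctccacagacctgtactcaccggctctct

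The octamer core occurred in 3 of the 8 promoters (Sox2, Nanog and Zfp42), against 4.12% of all 32851 promoters in the table. In Nanog it began 75 bases before the start and was followed by the Sox letters at 67 bases, the only Sox letters among the 8, against 10.7% of all promoters. The nuclear receptor core was present in Pou5f1, Sox2 and Nanog (14.0% of all promoters), and the Klf letters in Pou5f1, Klf2, Esrrb and Zfp42 (28.1%). Klf4 and Tfcp2l1 held none of the 4. Promoters of Tbx3 and Prdm14 were not analysed here.

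Per kilobase of annotated exon, the 10 genes spanned a wide range of levels. Pou5f1 was highest, with a median of 627 CPM per kb over the 8 libraries (425 to 800 CPM per kb). Zfp42 (235), Nanog (166), Sox2 (56.2), Tfcp2l1 (44.0), Klf4 (39.5) and Tbx3 (28.0 CPM per kb) followed. Klf2 (10.5), Esrrb (10.1) and Prdm14 (9.12 CPM per kb) were lowest. Values of every pair of neighbours in this order overlapped between libraries, although Pou5f1 stood above Zfp42, Nanog above Sox2, Klf4 above Tbx3 and Tbx3 above Klf2 in all 8. Klf2 and Esrrb were not separated, since Klf2 was the higher of the pair in 4 libraries, and they changed places when the longest transcript was used as the length. With that length the median was 1050.3 CPM per kb for Pou5f1 and 14.2 CPM per kb for Esrrb.

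**Figure D1:**
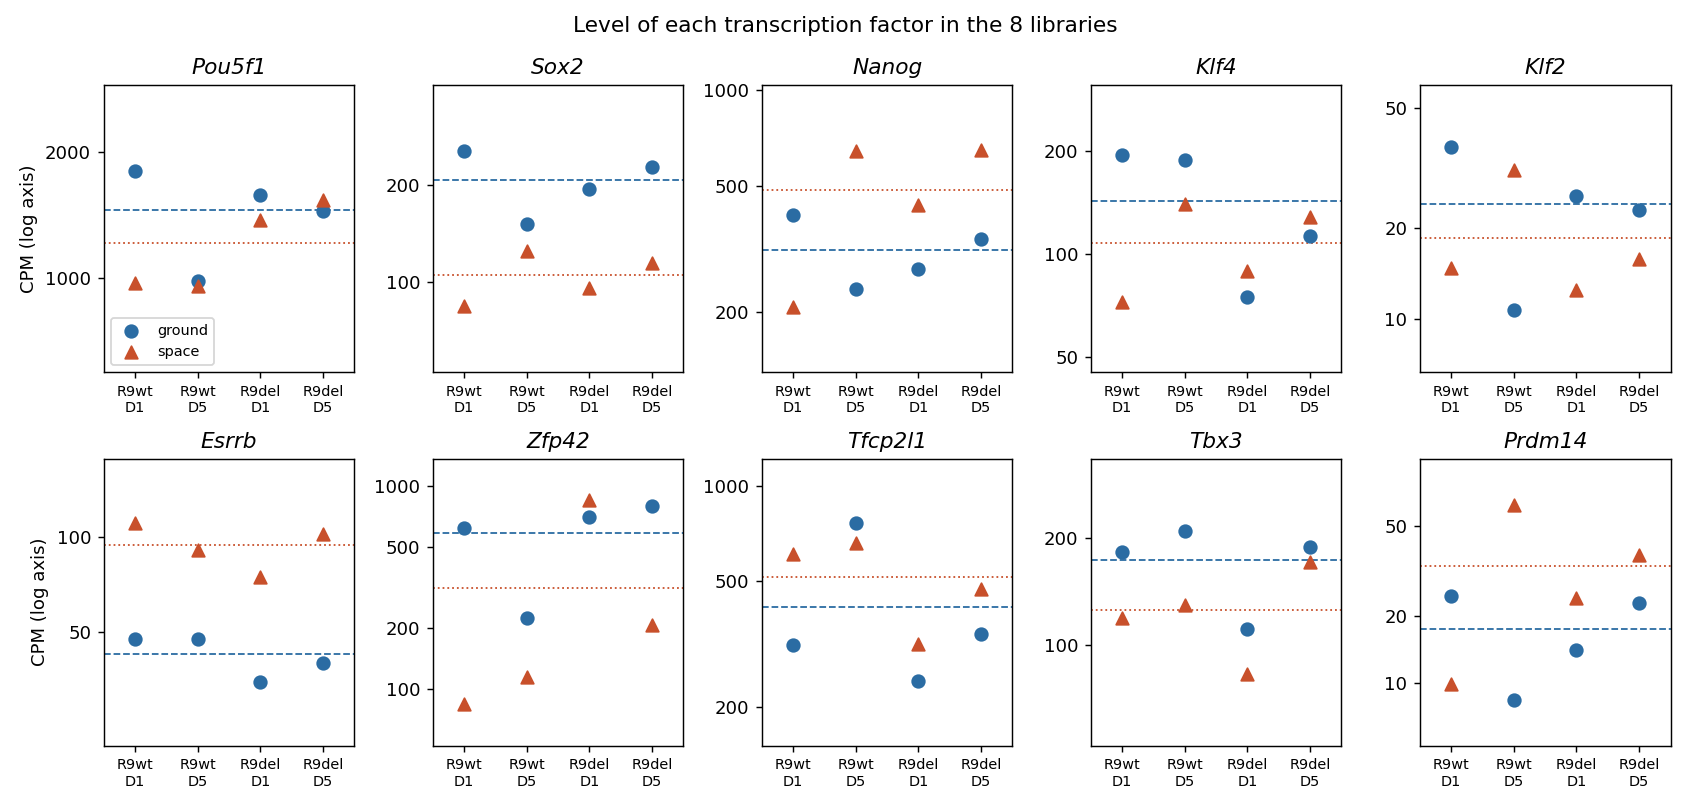
Level of each factor in CPM on a log axis, whose range differs between panels, for the 4 ground libraries (circles) and the 4 space libraries (triangles), by genotype and day; the lines are the means of the 4 ground (dashed) and 4 space (dotted) libraries. Ground and space do not overlap for Sox2 and Esrrb, and overlap for the other 8.

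Spaceflight against ground was asked first, with 4 libraries on each side. Esrrb rose and Sox2 fell, and the other 8 factors did not pass the test. Of the 20473 genes tested, 1.19% were called higher and 5.13% lower in space at an adjusted p under 0.05 (edgeR's quasi-likelihood test), so 1 of 10 factors in each direction is a count to be read beside those shares. These were 243 genes higher and 1051 lower, and the length and GC correction described with Sox2 gave 186 and 573. More were called with the replicate block (443 and 1335), by edgeR's exact test (457 and 1342), with the other variables as covariates (638 and 1528) and by DESeq2's Wald test (805 and 1576), so the share of all genes called higher depends on the setting. On leaving out a library the higher calls numbered 184 without Ground_R9wt_D5, 172 without Space_R9wt_D1 and 50 to 129 without any of the other 6, and the lower calls 776 to 1046. In 2 of the 10 factors the space and ground libraries did not overlap, as was the case for 14.4% of all genes tested. The median log2 fold change of the 10 factors was -0.29, beside 0.050 for all genes.

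Esrrb (mm9, chr12:87702067-87862578, plus strand, 10 exon blocks) encodes an orphan nuclear receptor that can stand in for Nanog in sustaining self-renewal. It was at 47.7 CPM in both R9wt ground cultures, and at 34.8 CPM (D1) and 40.0 CPM (D5) in the R9del ground cultures. Space_R9wt_D1 held 111 CPM and Space_R9wt_D5 91.0, while the R9del space cultures held 74.7 CPM at D1 and 103 at D5. Every space library was thus above every ground library. The means were 94.9 ± 15.8 CPM in space and 42.5 ± 6.29 on the ground (SD, n = 4 each, where the SD covers genotype and day as well as chance). Expression was 2.29-fold higher in space (log2 fold change 1.20, SE 0.20, adjusted p = 0.00635 by edgeR), and higher in 4 of 4 pairs that share genotype and day. An exact permutation test (two-sided, 4 against 4) gave p = 0.0286, the smallest it can give. That test exchanged labels over all libraries and did not keep the matched pairs together. Blocking on the matched pairs gave an adjusted p of 0.00654 by edgeR. Leaving out each library in turn kept the call in all 8 fits, with adjusted p from 0.0104 to 0.0346.

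Sox2 (mm9, chr3:34548927-34551383, plus strand), the partner of Oct4, was at 254 CPM (D1) and 151 CPM (D5) in the R9wt ground cultures and at 194 CPM (D1) and 228 CPM (D5) in those of R9del. The R9wt space cultures held 84.6 CPM at D1 and 125 at D5, and the R9del space cultures 95.8 CPM at D1 and 115 at D5. All space libraries were below all ground libraries, and the nearest values of the groups were those of the R9wt D5 cultures. The mean was 105 ± 18.4 CPM in space and 207 ± 44.7 on the ground (SD, n = 4 each). Expression fell 1.92-fold (log2 fold change -0.94, SE 0.22, adjusted p = 0.0317 by edgeR), in 4 of 4 pairs, with the same exact permutation p of 0.0286. Blocking on the matched pairs gave an adjusted p of 0.0487. The call was lost in 7 of the 8 fits that left out 1 library, with adjusted p from 0.0537 to 0.0951, and was kept only without Ground_R9wt_D5 (0.0145). Over these fits the log2 fold change ran from -1.09 to -0.85.

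The fold changes of all genes moved with gene length and base composition in this comparison. From the shortest to the longest decile of genes by exon length, the median log2 fold change rose from -0.31 to 0.32. Sox2 has 1 exon of 2457 bases, whose GC-richest 200-base window holds 81.0% G and C, while Esrrb has 6047 bases of exon with a richest window of 77.0%. The median log2 fold change of the decile holding Sox2 was -0.084 by exon length, 0.075 by exon GC content and -0.054 by richest window. For Esrrb these medians were 0.22, 0.029 and -0.33, so the order of the genes by richest window was opposite to that by length. A correction of each library for exon length and GC content, which was added after the trend had been seen, gave Sox2 a log2 fold change of -0.26 (SE 0.20, adjusted p = 0.607), so that its call was lost. Which of these properties moved the Sox2 value was not tested. Esrrb was at 1.33 (SE 0.20, adjusted p = 0.00517) after the same correction, and 1.32 (adjusted p = 0.00708) with the block added. Among the factors that had not passed the test, Klf4 (0.074), Klf2 (0.96) and Tfcp2l1 (-0.53) changed the sign of their log2 fold change under the correction, with adjusted p from 0.312 to 0.946.

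The GC-richest coding stretches of 150 bases in Sox2 (74.0% G and C) and Esrrb (68.7%) are shown, since the calls of both genes were recomputed for base composition. They lie in the coding part of an exon, and capitals mark the first of the longest runs without A or T, of 16 bases in Sox2 and 7 in Esrrb.
Sox2, mm9, chr3:34549364-34549513, strand plus: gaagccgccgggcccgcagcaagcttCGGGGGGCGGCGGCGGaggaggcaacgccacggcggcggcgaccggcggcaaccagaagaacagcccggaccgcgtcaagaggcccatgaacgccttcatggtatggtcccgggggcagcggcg
Esrrb, mm9, chr12:87811161-87811310, strand plus: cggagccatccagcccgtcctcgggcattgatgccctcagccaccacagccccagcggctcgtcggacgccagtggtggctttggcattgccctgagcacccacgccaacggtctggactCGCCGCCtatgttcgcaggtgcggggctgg

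**Figure D2:**
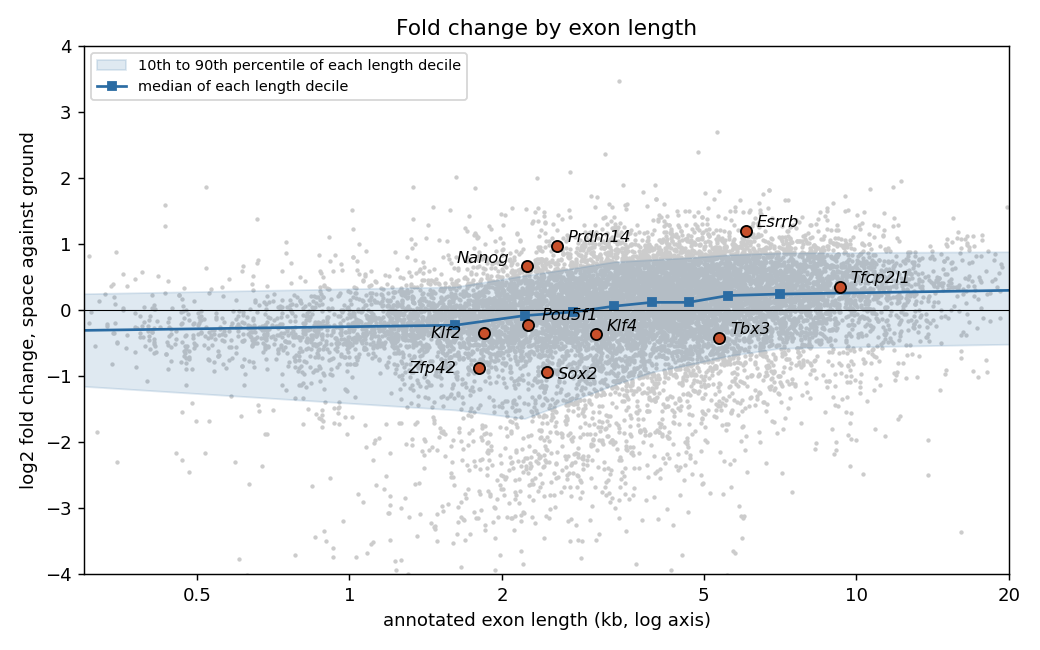
Log2 fold change in space against ground of each gene with a mean log2 CPM of at least 1 (grey; points beyond 4 in either direction or outside the length range are not drawn) against annotated exon length in kb on a log axis, with the median and the 10th to 90th percentile of each length decile; the 10 factors are the large points. The median rises from -0.31 to 0.32 with length, Esrrb, Nanog and Prdm14 lie above the band of their length decile and the other 7 factors, Sox2 included, inside it.

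Pou5f1, the POU factor on which pluripotency depends, was at 1804 CPM (D1) and 988 CPM (D5) in the R9wt ground cultures and at 1578 CPM (D1) and 1449 CPM (D5) in those of R9del. The space cultures held 973 CPM (D1) and 958 CPM (D5) for R9wt, and 1381 CPM (D1) and 1541 CPM (D5) for R9del. Pou5f1 varied least of the 10, with 1.88-fold between its lowest and highest library, and its values fell into a low set of 3 R9wt libraries and a higher set made of Ground_R9wt_D1 and the R9del libraries. The log2 fold change in space was -0.23 (SE 0.25, adjusted p = 0.704).

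Nanog, the homeodomain factor that lets mESCs do without LIF when it is overexpressed, was at 404, 236, 273 and 340 CPM on the ground in R9wt D1, R9wt D5, R9del D1 and R9del D5. In the same order it was at 207, 643, 434 and 649 CPM in space. Space was higher in 3 of 4 pairs and lower in R9wt D1, and the log2 fold change was 0.66 (SE 0.34, adjusted p = 0.348). Prdm14, which represses de novo DNA methyltransferases and FGF signalling in mESCs, followed the same order of signs, with 24.3, 8.43, 14.1 and 22.8 CPM on the ground and 9.96, 62.4, 23.9 and 37.1 CPM in space. Its log2 fold change was 0.97 (SE 0.53, adjusted p = 0.369), and on leaving out a library it ran from 0.48 (unadjusted p = 0.358, adjusted p = 0.720) without Space_R9wt_D5 to 1.25 (unadjusted p = 0.0193, adjusted p = 0.161) without Space_R9wt_D1.

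Klf4, a Krüppel-like factor downstream of LIF/STAT3, was at 196, 189, 75.0 and 113 CPM on the ground in R9wt D1, R9wt D5, R9del D1 and R9del D5, and at 72.4, 141, 89.7 and 129 CPM in space. Klf2, its relative that is removed upon ERK signalling, was at 37.4, 10.7, 25.6 and 23.0 CPM on the ground and at 14.8, 31.3, 12.5 and 15.9 CPM in space. Space and ground overlapped for both, and the log2 fold changes were -0.37 (SE 0.33, adjusted p = 0.630) for Klf4 and -0.35 (SE 0.41, adjusted p = 0.733) for Klf2. Tbx3, a T-box factor, was at 183, 210, 111 and 189 CPM on the ground and at 119, 130, 82.8 and 171 CPM in space. It was lower in space in 4 of 4 pairs, by a log2 fold change of -0.42 (SE 0.27, adjusted p = 0.459). With the block on matched pairs the value was -0.44 (unadjusted p = 0.0395, adjusted p = 0.188 by edgeR).

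Tfcp2l1, a direct target of STAT3, was at 315, 764, 242 and 340 CPM on the ground and at 611, 660, 317 and 475 CPM in space, in the same order of cultures. Space was higher in 3 of 4 pairs (log2 fold change 0.35, SE 0.37, adjusted p = 0.684). On leaving out a library the log2 fold change ran from 0.16 without Ground_R9del_D1 to 0.80 (unadjusted p = 0.0187, adjusted p = 0.155) without Ground_R9wt_D5. Zfp42 was at 622, 224, 700 and 796 CPM on the ground and at 84.1, 115, 852 and 207 CPM in space. It had the widest range of the 10, 10.1-fold between Space_R9wt_D1 and Space_R9del_D1, and was lower in space in every pair except R9del D1. The log2 fold change was -0.87 (SE 0.69, adjusted p = 0.574), and -1.35 (unadjusted p = 0.0209, adjusted p = 0.130) with the block. Without Space_R9del_D1 it was -2.10 (adjusted p = 0.0381), so this 1 library decides the call, and over the 8 such fits the values ran from -2.10 to -0.58. Of the 50-base stretches of Zfp42 exon, 34.9% also occur elsewhere in mm9, against 20.6% for Nanog, 17.8% for Pou5f1, 12.6% for Klf4 and under 1% for the rest; how such reads were counted is not given in the sources used here, and their part in the values was not tested. Exons of other genes overlap 2.14% of the Tbx3 exon length (the antisense Tbx3os1) and 1.40% of that of Tfcp2l1, and Sox2 lies in an intron of the noncoding gene Sox2ot on the same strand.

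At the fold change of at least 2 with an unadjusted p under 0.05, as the study's methods used, 1 factor was called in space against ground, Esrrb, beside 10.9% of all genes in either direction. These were 2227 genes by the quasi-likelihood test used here. The study reported fewer genes at that threshold in its own comparison of these groups, nearly all of them lower, and the reason for the difference was not tested. Both Esrrb and Sox2 had an unadjusted p under 0.05, as had 18.9% of all genes. With the replicate block, Zfp42 (0.0209) and Tbx3 (0.0395) also had an unadjusted p under 0.05 by edgeR, as had 4752 of the 20473 genes. In bulk RNA, a change in the share of cells that express a gene and a change in RNA per cell cannot be told apart.

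**Figure D3:**
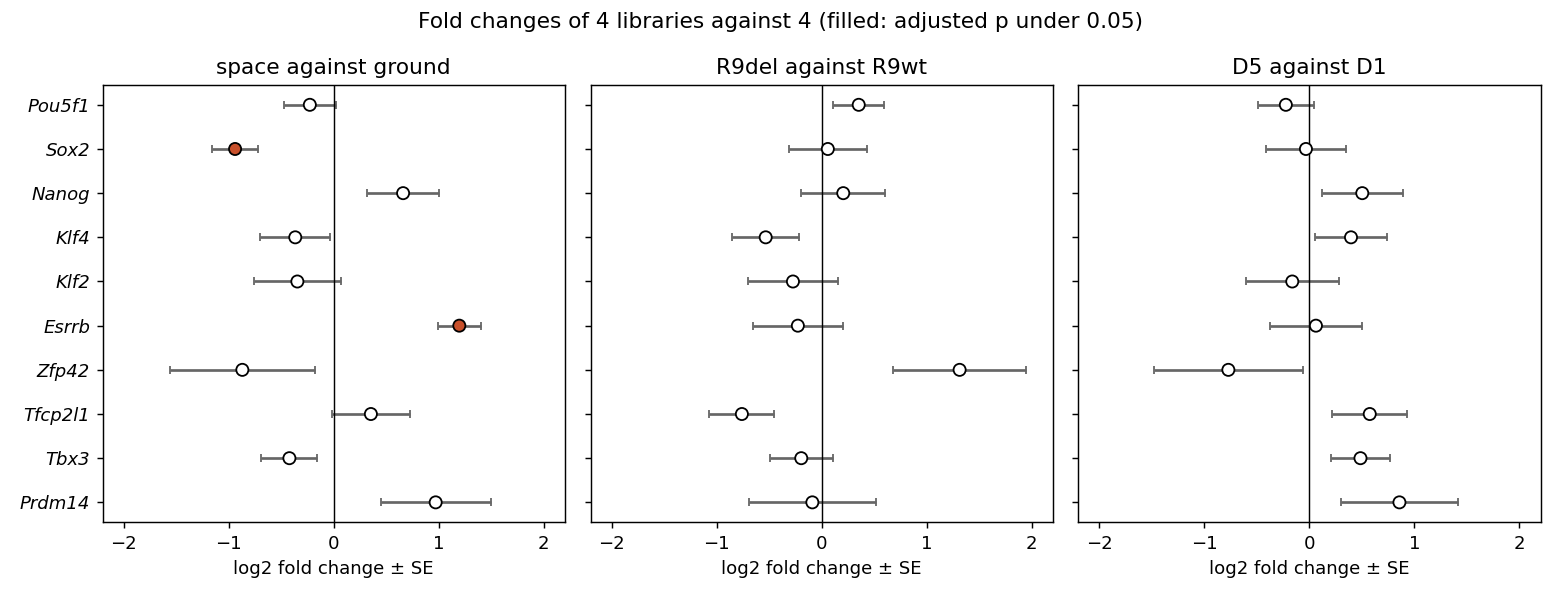
Log2 fold change of each factor in the 3 comparisons of 4 libraries against 4, with bars of 1 SE; filled points have an adjusted p under 0.05. Only Esrrb (1.20) and Sox2 (-0.94) in space against ground are filled.

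Rad9 deletion was examined by comparing the 4 R9del with the 4 R9wt libraries. None of the 10 factors was called at an adjusted p under 0.05 by edgeR, or by DESeq2 and edgeR's exact test, where 2.04% of all genes were by edgeR's quasi-likelihood test (243 higher and 174 lower in R9del). DESeq2's Wald test called 978 genes higher and 1067 lower, and edgeR's exact test 751 and 706. The replicate block gave 910 and 823, the other variables as covariates 714 and 761, and the length and GC correction 347 and 305. The quasi-likelihood test called 0 genes without Ground_R9wt_D5, Ground_R9del_D1, Space_R9wt_D1 or Space_R9del_D1, where 3030 to 3708 genes had an unadjusted p under 0.05. Without Ground_R9wt_D1 it called 247 higher and 288 lower, and it called 64 and 29 without Ground_R9del_D5, 32 and 44 without Space_R9wt_D5, and 86 and 19 without Space_R9del_D5. In none did the groups fall apart without overlap (14.3% of all genes), and none was past a 2-fold change with an unadjusted p under 0.05 (13.8%). Tfcp2l1 alone had an unadjusted p under 0.05 (0.0347, against 20.2% of all genes). Its mean was 343 ± 97.1 CPM in R9del and 588 ± 192 CPM in R9wt (SD, n = 4 each), it was lower in R9del in 4 of 4 pairs, and the log2 fold change was -0.76 (SE 0.31, adjusted p = 0.211 by edgeR), or -0.99 to -0.63 on leaving out a library (adjusted p from 0.0689 to 0.419).

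Zfp42 was higher in R9del in 4 of 4 pairs, with 639 ± 295 CPM against 261 ± 248 CPM (SD, n = 4 each). The log2 fold change was 1.31 (SE 0.63, unadjusted p = 0.0641, adjusted p = 0.277 by edgeR). Blocking on the matched pairs gave 1.54 (unadjusted p = 0.0106, adjusted p = 0.0748), and on leaving out a library it ran from 1.00 (unadjusted p = 0.146, adjusted p = 0.438) without Space_R9wt_D1 to 2.17 (unadjusted p = 0.00290, adjusted p = 0.0641) without Ground_R9wt_D1. The adjusted p was above 0.05 in all of these fits. The Zfp42 ratio of R9del to R9wt differed greatly between the pairs, with log2 values of 0.17 (D1) and 1.83 (D5) on the ground and 3.34 (D1) and 0.84 (D5) in space. Pou5f1 (0.35), Nanog (0.21), Klf4 (-0.53), Klf2 (-0.27), Esrrb (-0.23), Tbx3 (-0.19), Prdm14 (-0.088) and Sox2 (0.060) had log2 fold changes with adjusted p from 0.379 to 0.952.

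D5 was compared with D1 in the same way. No factor was called at an adjusted p under 0.05 by any of the tests run. By edgeR's quasi-likelihood test no other gene was called either (0.0% of 20473), while edgeR's exact test called 32 genes higher and 3 lower, and DESeq2's Wald test 78 higher and 12 lower. At an unadjusted p under 0.05 there were 0 of the 10 factors and 4.32% of all genes, with a 2-fold change in addition 0 factors and 3.44% of genes, and without overlap of the groups 0 factors and 2.85% of genes. Tbx3 and Tfcp2l1 were higher at D5 in 4 of 4 pairs, with log2 fold changes of 0.49 (SE 0.28) and 0.57 (SE 0.36). The other log2 fold changes ran from -0.77 for Zfp42 to 0.86 for Prdm14, and all had an adjusted p of 1.00 by edgeR after rounding. On leaving out a library, Prdm14 ran from 0.34 without Space_R9wt_D5 to 1.17 (unadjusted p = 0.0271, adjusted p = 1.00) without Ground_R9wt_D5, and Zfp42 from -1.63 (unadjusted p = 0.0344, adjusted p = 0.946) without Ground_R9del_D5 to -0.48 without Space_R9del_D1.

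Whether the effect of one variable differed by another was tested with interaction terms over 22561 genes. No factor reached an adjusted p under 0.05 in any of the 3 interactions, by edgeR's quasi-likelihood test or by DESeq2, so the values below describe these libraries. For location by genotype, Klf4 had an unadjusted p of 0.0260 (adjusted p = 1.00), as did 3.12% of all genes at a p under 0.05. Klf4 was lower in space in R9wt, with log2 ratios of -1.43 at D1 and -0.43 at D5, and slightly higher in R9del, with 0.26 at D1 and 0.19 at D5. The difference between the genotypes was 1.14 (SE 0.41). Without the covariate for day its unadjusted p was 0.0765, and on leaving out a library it was under 0.05 only without Ground_R9wt_D5 (0.00536) or Space_R9wt_D5 (0.0116), and 0.0577 to 0.101 in the other 6 fits. The number of factors with an unadjusted p under 0.05 ran from 0 to 3 over the 8 fits.

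For location by day, 3 of the 10 factors had an unadjusted p under 0.05, beside 6.59% of all genes. They were Nanog (difference of log2 fold changes 1.38, SE 0.51, unadjusted p = 0.0272), Klf2 (1.65, SE 0.68, unadjusted p = 0.0406) and Prdm14 (2.09, SE 0.88, unadjusted p = 0.0440), each with an adjusted p of 0.733 by edgeR. This number was 0 on leaving out any of the 4 R9wt libraries (Ground_R9wt_D1, Ground_R9wt_D5, Space_R9wt_D1 or Space_R9wt_D5), 2 without Space_R9del_D1, 4 without Ground_R9del_D5, 3 without either of the other R9del libraries, and 1 with library size alone or with no covariate for genotype. At D1 the R9wt log2 ratios of space to ground were -0.97 for Nanog, -1.33 for Klf2 and -1.29 for Prdm14, and at D5 they were 1.45, 1.55 and 2.88. In R9del the ratios were 0.67 and 0.93 for Nanog, -1.04 and -0.53 for Klf2, and 0.76 and 0.70 for Prdm14, with the same sign on both days. For genotype by day, no factor had an unadjusted p under 0.05 (4.31% of all genes); the lowest was Tbx3 (0.76, SE 0.35, unadjusted p = 0.0646). On leaving out a library the number ran from 0 to 2, with 1 without Ground_R9wt_D1, 1 without Space_R9wt_D5 and 2 without Space_R9wt_D1.

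**Figure D4:**
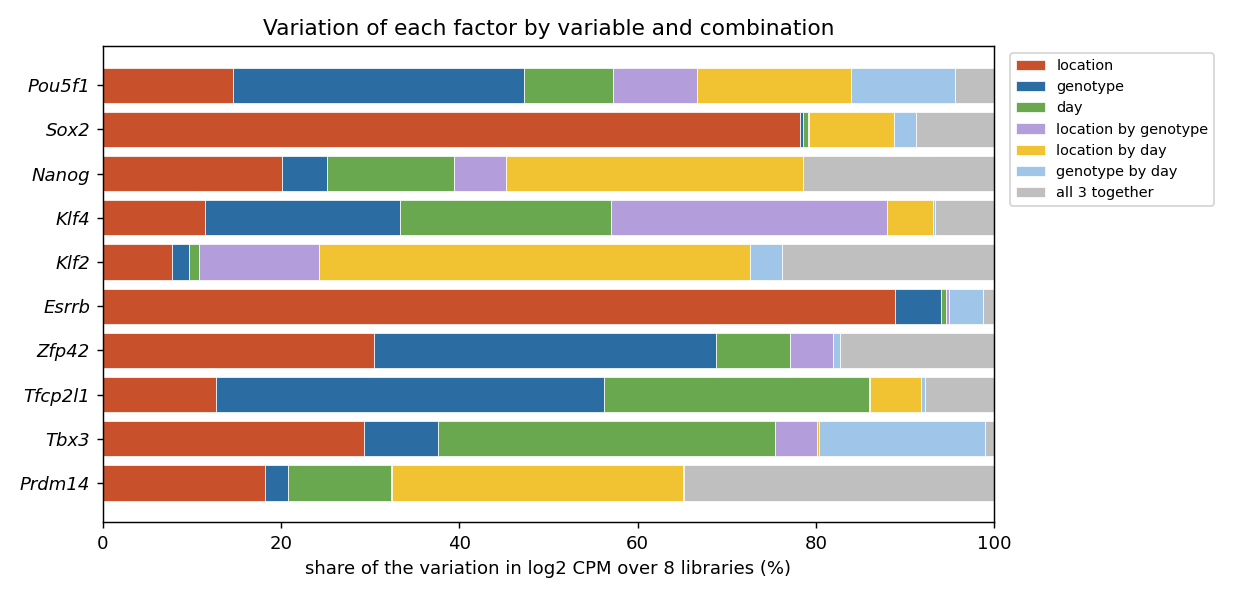
Share of the variation of each factor's log2 CPM over the 8 libraries (percent, stacked to the whole) that goes with location, genotype, day and their combinations. Location holds 88.9% for Esrrb and 78.2% for Sox2, and a main variable holds at most 43.4% for the other 8.

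With 1 library per combination the layout leaves no residual, so the shares of variation describe these libraries and carry no test. Location took 88.9% of the variation of Esrrb and 78.2% of that of Sox2, against a median of 14.9% over all genes tested. These shares rest on values without the length and GC correction, which moved the Sox2 log2 fold change in space from -0.94 to -0.26. For Klf2 the largest share was location by day (48.3%), for Nanog also location by day (33.4%), and for Prdm14 all 3 variables together (34.8%) followed by location by day (32.7%). Genotype took the largest share for Pou5f1 (32.7%), Zfp42 (38.4%) and Tfcp2l1 (43.4%). Day led for Tbx3 (37.8%) and location by genotype for Klf4 (30.9%).

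Pairs of libraries that differ in 1 variable showed where the factors moved most. There is no replicate within such a pair, so counts past 2-fold and log2 ratios are given without a test. The counts stand beside the share of 17597 genes (with at least 1 CPM in a library) past 2-fold in either direction. In space against ground, 6 of 10 factors were past 2-fold in R9wt D1 (34.0% of genes), 3 in R9wt D5 (36.1%), 3 in R9del D1 (21.1%) and 2 in R9del D5 (22.9%). The R9wt D1 pair held Esrrb (log2 ratio 1.22) among the higher, and Zfp42 (-2.89), Sox2 (-1.59), Klf4 (-1.43), Klf2 (-1.33) and Prdm14 (-1.29) among the lower. The median absolute log2 ratio of the factors in that pair was 1.25, beside 0.69 for all genes.

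In R9del against R9wt, 1 factor was past 2-fold in the D1 ground pair (22.7% of genes), 4 in the D5 ground pair (31.5%), 3 in the D1 space pair (34.3%) and 0 in the D5 space pair (25.3%). In D5 against D1, 4 factors were past 2-fold in R9wt on the ground (29.1% of genes), 0 in R9del on the ground (12.7%), 3 in R9wt in space (27.6%) and 2 in R9del in space (14.4%). Over the 12 pairs this came to 31 changes of 2-fold or more. In R9wt on the ground, Klf2 (-1.80), Prdm14 (-1.53) and Zfp42 (-1.47) were past 2-fold lower at D5 and Tfcp2l1 (1.28) past 2-fold higher, and in R9wt in space Prdm14 (2.64), Nanog (1.64) and Klf2 (1.08) were past 2-fold higher at D5. These pairs share libraries with one another, so their counts are not independent.

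Likeness of profiles was measured as the root mean square difference of log2 CPM over the 8 libraries, each gene centred on its own mean. Among the 10 factors, Klf4 and Tbx3 were closest to each other (0.35), then Nanog and Prdm14 (0.38), and Pou5f1 and Sox2 (0.44). Many other genes were as close, since 3276 of 13046 were closer to Pou5f1 than Sox2 was (median over genes 0.60), 1327 closer to Sox2 than Pou5f1 was, 230 closer to Klf4 than Tbx3 was and 655 closer to Tbx3 than Klf4 was. There were 5 genes closer to Prdm14 than Nanog was, led by Bcl2l14 (0.31), while 231 genes were closer to Nanog than Prdm14 was, led by Ehd3 (0.18). The genes closest to the others were Ercc8 for Pou5f1 (0.084), Ube2e3 for Sox2 (0.16), Nsdhl for Klf4 (0.19), Gbe1 for Klf2 (0.21), Nf1 for Esrrb (0.13), Arl4a for Zfp42 (0.39), Tmem59 for Tfcp2l1 (0.081) and Rps20 for Tbx3 (0.15). Each profile has only 8 values, and the search covered all 13046 genes.

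Other genes of the naive network were counted from lists chosen by name, to be read beside the 1.19% of all genes called higher and 5.13% called lower in space and the median log2 fold change of 0.050 over all genes. Of 14 further transcription factors, 0 rose and 3 fell in space at an adjusted p under 0.05, namely Klf5 (log2 fold change -2.42, adjusted p = 0.0219), Mybl2 (-0.90, adjusted p = 0.00963) and Foxd3 (-2.48, adjusted p = 0.0335). Klf5 is a Krüppel-like factor that acts beside Klf4 and Klf2, Mybl2 drives cell cycle genes, and Foxd3 is a forkhead factor of the epiblast. The median of the 14 was -0.56. Of 18 effectors and markers of the naive state, 1 rose, the adhesion molecule Pecam1 (1.22, adjusted p = 0.0222), and 0 fell (median 0.12). Of 6 genes of the LIF pathway, Socs3, the feedback inhibitor that STAT3 induces, fell (-1.50, adjusted p = 0.00901), and the median of the 6 was 0.44. Mybl2 kept its call in every alternative run. Socs3 lost it only under the length and GC correction without the block (-0.94, adjusted p = 0.0918 by edgeR). Klf5 (-1.18, adjusted p = 0.316), Foxd3 (-0.98, adjusted p = 0.412) and Pecam1 (0.69, adjusted p = 0.264) were not called under the correction, nor with the block added. With 7 libraries, Klf5 was not called without Ground_R9del_D1, Ground_R9del_D5 or Space_R9wt_D5 (adjusted p up to 0.0762), Foxd3 was called only without Ground_R9wt_D5, Space_R9wt_D1 or Space_R9del_D1 (up to 0.0966 in the others), and Pecam1 only without Space_R9del_D1 (up to 0.0783 in the others). The medians of the 3 lists were 0.81, 0.36 and -0.56 in R9del against R9wt (all genes -0.046) and -0.27, -0.18 and 0.14 in D5 against D1 (all genes -0.026). None of the genes of these 3 lists was called for genotype or for day at an adjusted p under 0.05 by the same test. Of all genes, that test called 2.04% for genotype and 0.0% for day, so these counts of 0 do not set the lists apart.

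Of 12 formative and primed genes, 0 were called in any comparison at an adjusted p under 0.05. Of all genes, 1.19% were called higher and 5.13% lower in space, 2.04% for genotype and 0.0% for day. The median of the 12 was -0.40 in space against ground, -0.29 in R9del against R9wt and -0.74 in D5 against D1 (all genes 0.050, -0.046 and -0.026). In D5 against D1, 4 of the 12 had an unadjusted p under 0.05 by edgeR, beside 4.32% of all genes. Among markers of other cell types, the highest levels in any library were 138 CPM for Dab2, 115 for Tubb3, 113 for Hand1 and 86.3 for Gata3. The summed CPM of the 5 mesendoderm markers was 6.50 to 34.9 in space and 8.03 to 19.8 on the ground, and that of the 6 primitive endoderm markers 16.9 to 220 in space and 30.1 to 66.2 on the ground. The 5 trophoblast markers summed to 11.0 to 201 CPM in space and 7.26 to 74.6 on the ground. Of 4 neural markers the sum was 26.5 to 132 in space and 27.8 to 115 on the ground, and of the 8 fibroblast markers 26.6 to 43.1 in space and 23.5 to 52.3 on the ground. In space against ground the median log2 fold change was 1.29 for the primitive endoderm markers, 0.23 for 4 trophoblast markers tested, -0.76 for the mesendoderm markers, 0.14 for 3 neural and 0.27 for 5 fibroblast markers tested. Of the primitive endoderm markers, Pdgfra (1.81, adjusted p = 0.0891), Dab2 (1.66, adjusted p = 0.254), Sox7 (1.55), Gata6 (1.02) and Gata4 (0.38) had values above 0 and were not called, while Sox17 fell (-3.88, adjusted p = 0.0187) from at most 6.11 CPM. Of the trophoblast markers, Gata3 (1.37), Hand1 (0.91) and Tfap2a (-0.45) were not called, and Cdx2 fell (-2.99, adjusted p = 0.0329) from at most 2.93 CPM. In D5 against D1 the medians were 1.32 for the primitive endoderm and 1.20 for the trophoblast markers, with 0 called, as were 0.0% of all genes. Tubb3 rose in R9del (2.68, adjusted p = 0.0328). With 7 libraries, Tubb3 was called only without Ground_R9wt_D1, with log2 fold changes from 2.41 to 3.18 and adjusted p up to 0.109, and Cdx2 only without Ground_R9wt_D1 or Space_R9wt_D5 (adjusted p up to 0.0927). Sox17 was not called without Ground_R9del_D5, Space_R9del_D1 or Space_R9del_D5 (up to 0.0590). Under the length and GC correction Cdx2 was at -2.21 (adjusted p = 0.126) and not called, while Sox17 and Tubb3 were. With the block added to the correction, Cdx2 was called (-2.21, adjusted p = 0.0489 by edgeR). The part of these markers in the values of the 10 factors was not tested.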

How the data were processed

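Paired-end mRNA reads of 8 mESC libraries were aligned by the authors to mm9 with TopHat2 2.0.9, and the deposited counts are whole numbers per Ensembl gene, without normalization. The counting program, its annotation and its use of strand are not given in the sources used here. Symbols, exon lengths and GC content came from an mm9 annotation, which holds 64.6% of the identifiers, all 10 factors included (Tfcp2l1 under an older symbol). From the counts, CPM with TMM scaling was computed (prior count 2 on the log2 scale), and 4 libraries were tested against 4 with edgeR 4.0.16 quasi-likelihood tests on R 4.3.3 (minimum count 10, Benjamini-Hochberg adjustment over all genes). Each group mixes cultures that differ in the other variables, and p-values measure the spread over these libraries. The factors and gene lists were chosen with earlier results of these data known. Other genes were named when called at an adjusted p under 0.05 in a list, at most 4 per list and comparison, or as the closest profile; uncalled markers of other cell types were named after their values had been seen. Alternatives were DESeq2 1.42.0 size factors and Wald test, library size alone, no filter, edgeR's exact test, covariates, a block of matched pairs, each library left out, and a length and GC correction (splines with 4 df, added after seeing the data). Libraries that share the other conditions deviated together from their group means (correlation 0.28 to 0.61 across genes for the pairs), so a block of the pairs was run as an alternative. The main group comparisons had no block and no covariate, so their p-values and shares of genes called do not use the pairing.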

Additional observations from a re-analysis of the deposited data

Results flagged for a closer look

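In groups of 4 libraries, 4 values stood far from the other 3 by Dixon's criterion, out of 60 groups examined. For values drawn from 1 normal distribution the criterion marks about 1 group in 20. That rate does not carry over here, since the libraries of a group differed in the other variables and each library was in several groups. Pou5f1 was at 1804 CPM in Ground_R9wt_D1, where the other R9wt libraries held 958 to 988 CPM. Klf4 was at 196 CPM in Ground_R9wt_D1, where the other D1 libraries held 72.4 to 89.7 CPM. Zfp42 was at 852 CPM in Space_R9del_D1 against 84.1 to 207 CPM in the other space libraries, and at 796 CPM in Ground_R9del_D5 against 115 to 224 CPM in the other D5 libraries.

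In 3 cases all pairs of one group moved one way and all pairs of the other group the opposite way. These cases were picked for this pattern from all factors. How many such cases chance would give was not computed, so their number is not a result. Klf4 was lower in space in R9wt and higher in R9del (difference of log2 fold changes 1.14, unadjusted p = 0.0260, adjusted p = 1.00 by edgeR). Klf2 was lower at D5 on the ground and higher at D5 in space (1.65, unadjusted p = 0.0406, adjusted p = 0.733). Esrrb was lower at D5 in R9wt, on the ground by a difference near 0, and higher at D5 in R9del (0.48, unadjusted p = 0.226, adjusted p = 1.00).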

How the results depend on the processing

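Esrrb in space against ground was called in every alternative run. The count of factors called there at an adjusted p was 2, and 1 to 2 when a library was left out; it was 1 under the length and GC correction, with and without the replicate block. The count at 2-fold and p was 1, but 2 with the replicate block, with the other variables as covariates and with the correction plus the replicate block, and 1 to 2 on leaving out a library. In R9del against R9wt this count was 0, but 1 with library size alone, DESeq2's Wald test, edgeR's exact test, the replicate block, covariates, the correction and the correction plus the replicate block, and 0 to 1 on leaving out a library. In D5 against D1 it was 0, and 0 to 1 on leaving out a library. For each of these the cause was not tested. The order of levels was kept for 8 of the 10 factors with the longest transcript as length.

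Signs turned only for values that were not called. Under the correction, log2 fold changes in space against ground were 0.074 for Klf4, 0.96 for Klf2 and -0.53 for Tfcp2l1, and 0.14, 0.97 and -0.42 with the replicate block added; Klf2 was at 0.10 in D5 against D1 under the correction. With the replicate block, Prdm14 was at 0.30 in R9del against R9wt (0.24 with the correction as well) and Sox2 at 0.068 in D5 against D1 (0.071 with covariates). The block changed no adjusted call of a factor. On leaving out a library, values in R9del against R9wt ran from -0.16 to 0.39 for Sox2, -0.083 to 0.62 for Nanog, -0.53 to 0.017 for Klf2, -0.57 to 0.025 for Esrrb and -0.40 to 0.81 for Prdm14. In D5 against D1 they ran from -0.27 to 0.30 for Sox2, -0.46 to 0.18 for Klf2 and -0.19 to 0.43 for Esrrb. Of the fits of the 10 factors in the 3 comparisons, 257 of the alternatives other than leaving out a library kept direction and side of the threshold, 2 lost a call (Sox2) and 11 turned sign; on leaving out a library 212 kept both, 7 lost a call (Sox2), 1 gained one (Zfp42 without Space_R9del_D1) and 20 turned sign. No factor was called at an adjusted p in any of the 3 interactions under the alternatives run (no covariate, library size alone, DESeq2's Wald test, each library left out), while the counts at an unadjusted p moved as given with those results. The 12 pairs held 31 to 32 changes past 2-fold. Each of the 10 factors had at least 667 counts in every library, and no culture was repeated.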
